A study of Homo sapiens with 24 samples.

Results

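Azacitidine and decitabine act only after a cell has taken them up and phosphorylated them, and 10 genes of that route were followed here through the 24 RNA-seq libraries made from 3 human lines of T-cell origin. The members were chosen by name for their part in this route, with earlier results of these data known: the nucleoside transporters SLC29A1 and SLC29A2, the nucleoside kinases DCK, UCK1 and UCK2, the ribonucleotide reductase subunits RRM1 and RRM2, the deaminases CDA and DCTD, and the triphosphohydrolase SAMHD1. They are 10 of the 25559 genes in each count table, and all 10 are listed. The lines are PF382, from a T-cell acute lymphoblastic leukemia, TLOm1, from an adult T-cell leukemia, and HH, from a cutaneous T-cell lymphoma. Cells were treated in logarithmic growth for 96 h, with drug added every 24 h. Azacitidine was given at 125, 250 and 500 nM to PF382 and TLOm1 and at 50, 125 and 250 nM to HH, and decitabine at 5, 12.5 and 25 nM to every line, beside untreated cells. Each condition has 1 library. The azacitidine and decitabine libraries form separate sets by the prefix of their titles, and each line has 1 untreated library in each set. The labels do not say that the doses of a line, or its 2 untreated libraries, came from separate cultures, so every p-value reflects the spread among these libraries alone, which may be technical.

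Both drugs are analogs of cytidine: azacitidine is a ribonucleoside and decitabine the corresponding deoxyribonucleoside. SLC29A1 and SLC29A2 encode the equilibrative transporters that carry nucleosides across the plasma membrane. Decitabine is phosphorylated by deoxycytidine kinase (DCK) and azacitidine by the uridine-cytidine kinases UCK1 and UCK2. Part of the azacitidine diphosphate is then reduced to the deoxy form by ribonucleotide reductase, whose large subunit is RRM1 and whose small, cell-cycle regulated subunit is RRM2. Cytidine deaminase (CDA) inactivates both nucleosides, dCMP deaminase (DCTD) acts on deoxycytidine monophosphates, and SAMHD1 hydrolyses deoxynucleoside triphosphates, among them that of decitabine. Once in DNA, both drugs trap the methyltransferases that methylate cytosine in CpG dinucleotides.

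The 3 promoters below are shown because DNA methylation, where these drugs act, falls on CpG, and because their genes differ in how they were read: CDA had 0 counts in untreated cells of every line, SAMHD1 was near 0 in PF382 only, and DCK was read in every library. Each stretch runs from 250 bases before to 50 bases after the RefSeq start of the gene on GRCh38.p14, 5′ to 3′ on the strand of the gene, with every CG in capitals. CDA lies at chr1:20588847-20589146 on the plus strand, SAMHD1 at chr20:36951659-36951958 on the minus strand, and DCK at chr4:70993399-70993698 on the plus strand.
CDA: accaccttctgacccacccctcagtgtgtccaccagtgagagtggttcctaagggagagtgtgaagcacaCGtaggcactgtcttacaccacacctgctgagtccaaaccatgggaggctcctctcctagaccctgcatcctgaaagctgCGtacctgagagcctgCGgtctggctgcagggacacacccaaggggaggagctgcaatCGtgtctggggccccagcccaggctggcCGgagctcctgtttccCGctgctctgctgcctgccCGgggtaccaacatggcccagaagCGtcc
SAMHD1: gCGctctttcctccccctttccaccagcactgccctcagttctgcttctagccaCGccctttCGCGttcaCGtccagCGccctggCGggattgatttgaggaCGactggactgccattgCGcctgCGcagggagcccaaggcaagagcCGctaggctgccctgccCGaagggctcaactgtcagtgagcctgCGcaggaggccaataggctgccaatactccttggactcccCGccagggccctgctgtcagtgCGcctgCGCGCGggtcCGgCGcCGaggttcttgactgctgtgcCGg
DCK: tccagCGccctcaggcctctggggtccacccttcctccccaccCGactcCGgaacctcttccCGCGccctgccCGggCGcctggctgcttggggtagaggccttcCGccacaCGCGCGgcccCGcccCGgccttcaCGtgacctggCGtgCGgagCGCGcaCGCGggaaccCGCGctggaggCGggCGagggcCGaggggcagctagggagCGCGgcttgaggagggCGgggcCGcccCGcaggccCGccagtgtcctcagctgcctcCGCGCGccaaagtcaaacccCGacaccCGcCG
The CDA stretch holds 8 CG, that of SAMHD1 22 and that of DCK 37. Over the 35116 promoters of the same length in the table the median was 14 CG, and 96.0% held at least 1. As few CG as in CDA were found in 41.6% of them, as few as in SAMHD1 in 64.2% and as few as in DCK in 90.1%. Promoters were matched for 9 of the 10 members, and the 2 promoters listed for SLC29A1 held 27 and 34 CG. Methylation was not measured in these libraries, so the counts of CG describe sequence only.

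Total counts per library were 16175077 to 32496676 in the azacitidine set and 13892514 to 29793985 in the decitabine set. Levels are given as CPM, counts scaled to the total of the library. The lines were checked against 12 T-cell markers: untreated PF382 held all 12 at 1 CPM or more, untreated TLOm1 held 6, with CD3D, CD3G, CD5, CD7, CD28 and LCK below, and untreated HH held 10, with CD7 and LCK below. Of 9 epithelial and stromal markers, PF382 held 5 to 6 after treatment at a summed 30.6 to 71.3 CPM, against 5 at 18.8 to 20.1 CPM untreated. TLOm1 held 3 to 6 at 153 to 217 CPM after treatment, against 3 at 76.8 to 126 CPM untreated, and among them KRT8, a keratin, read 86.1 to 104 CPM after azacitidine and 22.1 to 55.1 CPM after decitabine, against 6.62 and 10.3 CPM untreated. The TLOm1 library at 5 nM decitabine stood apart by genes of connective tissue. It held 257 counts of COL1A2 (9.16 CPM), 97 of DCN (3.46 CPM) and 213 of COL1A1 (7.59 CPM), whereas COL1A2 and DCN were at 0 in the other 2 decitabine libraries and in both untreated libraries of that line, and COL1A1 was at 1.23 to 1.41 CPM and 0.284 to 0.555 CPM there. Results that use this library are given with and without it where a call depends on it. Of 6 B-cell markers HH held 2, MS4A1 and BLK, at a summed 360 to 452 CPM after treatment, against 350 to 406 CPM untreated. The part of these genes in the results below was not tested. In bulk RNA, fewer cells of a kind and less RNA per cell cannot be told apart.

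Before any drug, the lines differed most in SAMHD1, DCK and the transporters. The libraries behind this comparison are the 2 untreated ones of each line, 1 from each set. Of the 15501 genes tested with edgeR's quasi-likelihood test, 66.4% passed an adjusted p of 0.05 between PF382 and HH, 67.2% between PF382 and TLOm1 and 55.7% between TLOm1 and HH, so a difference in a member is set against a high background. CDA, with 0 counts in all 6 libraries, did not pass the filter on low counts, and 9 members were tested. PF382 and HH differed in 9 of the 9 (6 higher and 3 lower in PF382), PF382 and TLOm1 in 8 (5 higher and 3 lower in PF382), and TLOm1 and HH in 6 (3 higher and 3 lower in TLOm1).

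The transporters ran in opposite orders over the lines. SLC29A1, the main equilibrative carrier, was read at 308 and 313 CPM in PF382, at 55.4 and 44.5 CPM in TLOm1 and at 122 and 88.9 CPM in HH. PF382 stood above both other lines without overlap, by a log2 fold change of 2.48 over TLOm1 (SE 0.13, adjusted p = 2.74e-08) and of 1.38 over HH (SE 0.12, adjusted p = 2.22e-06). TLOm1 was lower than HH by a log2 fold change of -1.10 (SE 0.13, adjusted p = 2.16e-05). SLC29A2, the second carrier, read 17.1 and 13.4 CPM in PF382, 58.7 and 44.5 CPM in TLOm1 and 35.7 and 32.9 CPM in HH. It was lowest in PF382, at -1.92 against TLOm1 (SE 0.15, adjusted p = 6.73e-07) and -1.37 against HH (SE 0.15, adjusted p = 1e-05), both on the log2 scale. The 2 TLOm1 libraries were above those of HH (log2 fold change 0.55, SE 0.14, adjusted p = 0.0064), and this neighbour pair lost the call without the title prefix in the model (adjusted p = 0.0749) and without the first untreated library of HH (0.156) or of TLOm1 (0.0921).

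Among the kinases, DCK showed the widest range. It read 169 and 203 CPM in PF382, 27.6 and 33.9 CPM in TLOm1 and 31.5 and 49.4 CPM in HH. PF382 exceeded TLOm1 by 2.43 (SE 0.14, adjusted p = 5.35e-08) and HH by 2.03 (SE 0.13, adjusted p = 1.95e-07) on the log2 scale. TLOm1 and HH overlapped, and although their log2 difference of -0.40 passed the test (SE 0.13, adjusted p = 0.0243), it did not without the title prefix in the model (adjusted p = 0.18) or without the second untreated library of HH (0.427) or of TLOm1 (0.167). UCK1 was read at 61.3 and 54.0 CPM in PF382, at 25.7 and 22.4 CPM in TLOm1 and at 26.2 and 20.1 CPM in HH. PF382 was higher than TLOm1 by 1.10 (SE 0.14, adjusted p = 2.88e-05), while TLOm1 and HH overlapped and did not differ (log2 difference 0.033, SE 0.14, adjusted p = 0.862). UCK2, the more active of the uridine-cytidine kinases, was highest in HH instead. It read 89.4 and 92.2 CPM in PF382, 84.1 and 73.5 CPM in TLOm1 and 136 and 118 CPM in HH. HH was above both, with PF382 at -0.67 against it (SE 0.11, adjusted p = 0.000266) and TLOm1 at -0.72 (SE 0.11, adjusted p = 0.000229), and PF382 and TLOm1 did not differ beyond their spread (0.042, SE 0.11, adjusted p = 0.754).

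Both ribonucleotide reductase subunits were highest in PF382. RRM1 read 423 and 468 CPM in PF382, 229 and 214 CPM in TLOm1 and 200.3 and 190.3 CPM in HH. RRM2 read 734 and 1059 CPM in PF382, 356 and 350.1 CPM in TLOm1 and 346 and 429 CPM in HH. PF382 was above HH by 0.996 on the log2 scale for RRM1 (SE 0.11, adjusted p = 9.89e-06) and by 1.004 for RRM2 (SE 0.13, adjusted p = 4.69e-05), and TLOm1 and HH differed in neither (adjusted p = 0.249 for RRM1 and 0.353 for RRM2). Of 18 proliferation genes, all tested, 15 were higher in PF382 than in HH and 17 higher than in TLOm1, with 0 lower in either comparison. Among all genes tested, 34.4% were higher and 32% lower in PF382 than in HH. Against TLOm1 33.9% were higher and 33.3% lower in PF382.

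DCTD, the deaminase of monophosphates, was highest in TLOm1. It read 69.6 and 77.7 CPM in PF382, 139 and 133 CPM in TLOm1 and 50.6 and 43.3 CPM in HH. TLOm1 exceeded HH by 1.503 (SE 0.12, adjusted p = 1.4e-06), and PF382 lay between them, at -1.05 against TLOm1 (SE 0.12, adjusted p = 1.52e-05) and 0.46 against HH (SE 0.12, adjusted p = 0.00584). The last call was lost without the second untreated library of PF382 (adjusted p = 0.0555) or of HH (0.131). SAMHD1 read 0.393 and 0.0652 CPM in PF382, which is 9 and 1 counts, against 37.0 and 33.4 CPM in TLOm1 and 14.3 and 12.9 CPM in HH. PF382 stood apart by -7.24 from TLOm1 (SE 0.34, adjusted p = 1.28e-08) and -5.89 from HH (SE 0.35, adjusted p = 8.47e-08) on the log2 scale. TLOm1 was above HH by 1.34 (SE 0.21, adjusted p = 0.000215). Set against DCK in the same library, SAMHD1 counts were 0.00233 and 0.000322 of DCK counts in PF382, 1.34 and 0.985 in TLOm1 and 0.454 and 0.261 in HH. PF382 thus combined the highest DCK with the lowest SAMHD1 of the 3 lines.

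**Figure D1:**
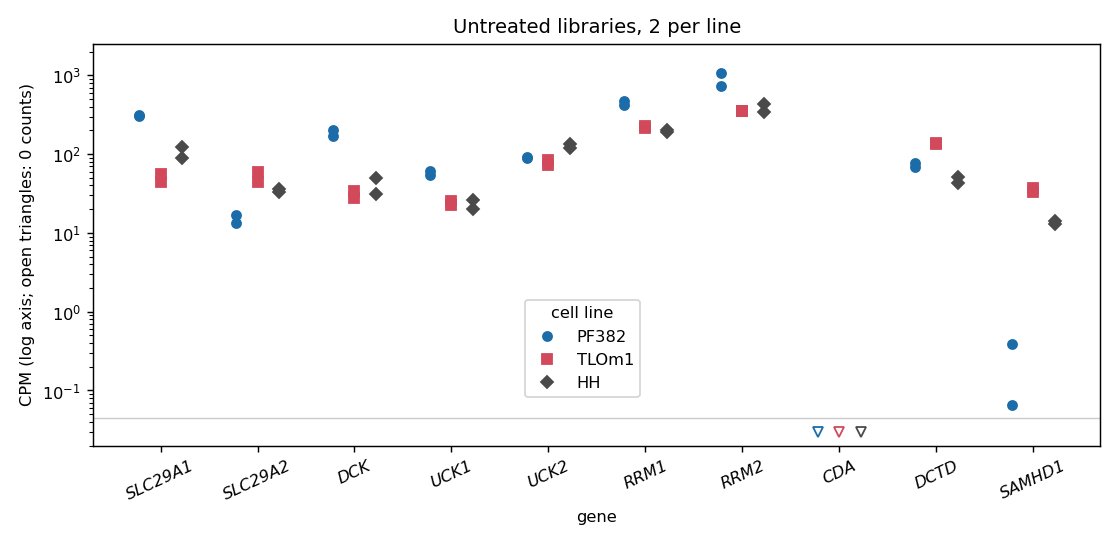
CPM of the 10 members (log axis) in the untreated libraries, 2 points per line, with PF382 left, TLOm1 in the middle and HH right at each gene; open triangles stand for 0 counts. SLC29A1 and DCK are highest in PF382, SAMHD1 lies at 0.393 and 0.0652 CPM there, and CDA has 0 counts in every line.

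Per kilobase of exon, RRM2 and RRM1 led in every line. Mean untreated levels of RRM2 were 232 CPM per kb in PF382, 91.4 in TLOm1 and 100.4 in HH, and those of RRM1 were 133, 65.9 and 58.1 CPM per kb in the same order. Next came SLC29A1 in PF382 (105 CPM per kb) and in HH (35.8), and DCTD in TLOm1 (59.9). SAMHD1 was ninth of the 10 in each line, at 0.0372 CPM per kb in PF382, 5.72 in TLOm1 and 2.21 in HH, and CDA was last. Exon lengths are those of an annotation on another build than the counts, so the order is approximate where neighbours are close. RRM2 has near-identical pseudogene copies, and how the authors' counting treated shared reads is not given in the sources used here.

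Set against untreated cells over all lines and doses, neither drug moved a member past the threshold. With azacitidine, 189 of 16107 genes were called (138 higher and 51 lower, 1.17%) and 0 of the 9 tested members, 0 of them also at an unadjusted p under 0.05, where 21% of all genes stood. DESeq2 called 0 members as well, and so did limma voom. The largest fitted change was that of SLC29A2, at -0.39 (SE 0.23, adjusted p = 0.353), followed by SAMHD1 at 0.25 (SE 0.17, adjusted p = 0.404). The median over the 9 members was 0.050, beside 0.014 over all genes tested. UCK1 was above the untreated library of its line in 8 of the 9 azacitidine libraries, with a log2 fold change of 0.13 (SE 0.09, adjusted p = 0.413).

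With decitabine, edgeR called 0 of 15892 genes (0%) and 0 of the 9 members, while 15.7% of the genes and 2 members had an unadjusted p under 0.05. DESeq2 and limma voom called 0 members. The 2 were DCK and DCTD. DCK read 203, 201, 215 and 210.2 CPM in PF382 at 0, 5, 12.5 and 25 nM, 33.9, 42.5, 42.7 and 48.4 CPM in TLOm1, and 49.4, 55.7, 62.0 and 63.7 CPM in HH. By CPM it was above the untreated library in 8 of 9 treated libraries, the exception being PF382 at 5 nM. Scaled by TMM factors, DCK in PF382 at 25 nM was below as well. The log2 fold change by edgeR was 0.21 (SE 0.07), with an adjusted p of 0.207 (0.0111 unadjusted). An exact two-sided permutation test that moved the untreated label within each line, on CPM without TMM factors, gave p = 0.0312 over 64 arrangements. It gave a p under 0.05 for 13.8% of all genes tested and for no other member, and with azacitidine for 18% of genes and 0 members. DCTD read 77.7, 68.9, 60.4 and 60.03 CPM in PF382 at 0, 5, 12.5 and 25 nM, 133, 117, 108 and 106 CPM in TLOm1, and 43.3, 43.7, 44.1 and 45.0 CPM in HH. By CPM it was lower in all 6 treated libraries of PF382 and TLOm1 and slightly higher in the 3 of HH. Scaled by TMM factors, HH at 5 and 12.5 nM lay slightly below its untreated library. The log2 fold change of DCTD by edgeR was -0.20 (SE 0.07, p = 0.0129, adjusted p = 0.213), and its exact permutation p was 0.0625. Without TLOm1 at 5 nM the log2 fold changes by edgeR were 0.21 for DCK (adjusted p = 0.206) and -0.22 for DCTD (adjusted p = 0.196). With both untreated libraries of a line as controls, DCK (log2 fold change 0.38, adjusted p = 0.032) and DCTD (-0.25, adjusted p = 0.026) passed. That comparison, in which 1796 of 14149 genes passed, sets libraries of 2 sets against each other.

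**Figure D2:**
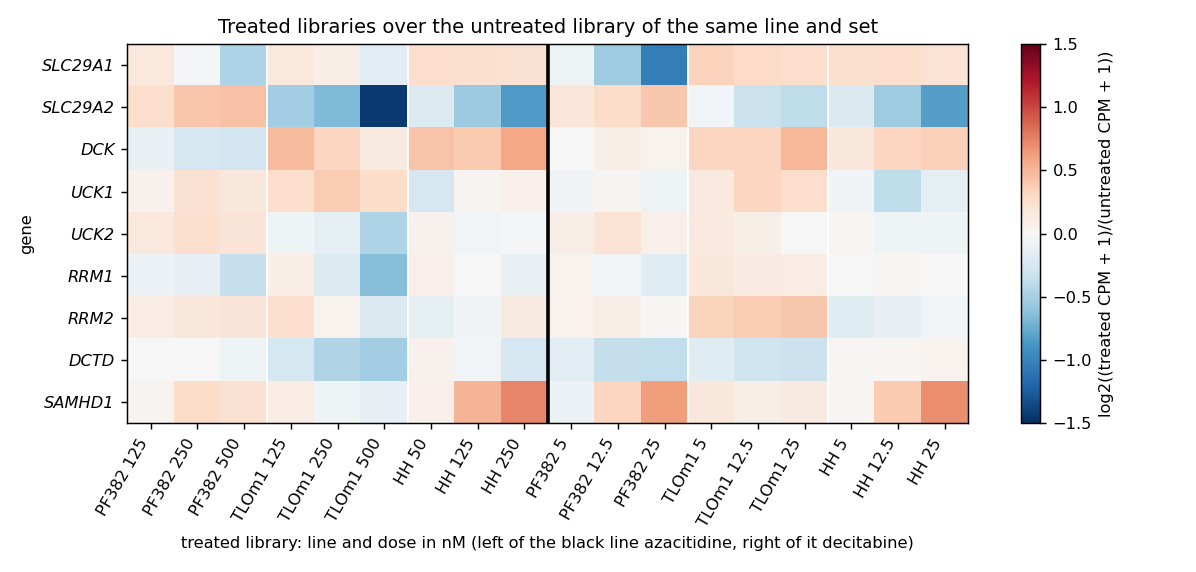
Log2 ratio of CPM + 1 in each treated library (columns, by line and dose in nM) over the untreated library of the same line and set, for the 9 members with counts above the filter (rows); azacitidine is left and decitabine right of the black line. SLC29A2 is blue in TLOm1 and HH and red in PF382, and the row of SLC29A1 is darkest in PF382 at 25 nM decitabine.

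CDA, which inactivates both drugs, was the member with counts in treated libraries only. The share of all genes with this pattern was not determined, so the pattern is not shown to be particular to CDA. There were also more treated than untreated libraries, 18 against 6. All 6 untreated libraries and all 6 treated PF382 libraries had 0 counts of CDA. In TLOm1 the azacitidine libraries held 2, 10 and 11 counts at 125, 250 and 500 nM (0.0822, 0.41 and 0.467 CPM), and the decitabine libraries held 0, 3 and 7 counts at 5, 12.5 and 25 nM (0, 0.101 and 0.296 CPM). HH held 1 count at 250 nM azacitidine, 1 count at 12.5 nM decitabine and 0 in the other 4 treated libraries. Summed over doses, TLOm1 reached 0.318 CPM with azacitidine (23 counts, exact 95% Poisson interval 0.202 to 0.478) and 0.123 CPM with decitabine (10 counts, 0.0589 to 0.226). The untreated TLOm1 library of the azacitidine set had 0 counts, which allows up to 3 counts or 0.122 CPM, and that of the decitabine set had 0 counts, which allows up to 0.139 CPM. The azacitidine level of TLOm1 summed over doses was 2.61 times the floor of its set. That ratio uses the point estimate and is not a lower bound. The lower limit of its interval, 0.202 CPM, also lay above this floor, whereas 125 nM alone, at 0.0822 CPM, lay below it. With decitabine the level summed over doses was below the floor of its set, so no fold is given and a difference was not detectable at this depth. Intervals and floors cover counting error only. CDA passed the filter on low counts in no comparison and was not tested by edgeR. An exact two-sided permutation test on log2(CPM + 1) gave p = 0.188 for azacitidine and p = 0.625 for decitabine over the 3 lines.

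CDA is abundant in myeloid cells, and 7 myeloid markers were read beside it. TLOm1 held 2 of the 7, CSF1R and ITGAM, at a mean of 1 CPM or more in treated and in untreated libraries. The summed level of all 7 was 2.55 to 3.49 CPM after azacitidine and 3.03 to 4.397 CPM after decitabine, against 2.41 to 2.89 CPM untreated. CD33, a receptor of myeloid cells, was above both untreated libraries in all 6 treated ones: it read 0.164, 0.41 and 0.297 CPM at 125, 250 and 500 nM azacitidine (21 counts in all) and 0.143, 0.134 and 0.127 CPM at 5, 12.5 and 25 nM decitabine (11 counts), against 0.0406 and 0 CPM untreated (1 count). ITGAM, an integrin subunit, read 1.19 to 2.01 CPM after azacitidine and 1.18 to 2.41 CPM after decitabine, against 0.894 and 1.16 CPM untreated. CSF1R read 1.69, 0.944 and 0.806 CPM at 125, 250 and 500 nM azacitidine, against 1.5 CPM untreated in that set. With decitabine at 5, 12.5 and 25 nM CSF1R read 1.39, 2.01 and 1.36 CPM, against 0.972 CPM untreated. CD14 read 0.041 to 0.17 CPM after azacitidine and 0.0423 to 0.269 CPM after decitabine, against 0.325 and 0.231 CPM untreated. The defining granule and neutrophil genes MPO and FCGR3B were at 0 in both untreated libraries and in all 3 decitabine libraries and held 2 counts and 1 count after azacitidine, and LYZ held at most 3 counts in any library. PF382, where CDA stayed at 0 counts, held 0 of the 7 markers untreated (summed 0.698 to 0.912 CPM). After treatment it held 1, MPO, at a summed 1.14 to 3.15 CPM with azacitidine and 0.344 to 3.89 CPM with decitabine. HH held 1, CSF1R, at a summed 2.54 to 2.78 CPM after azacitidine and 2.29 to 3.52 CPM after decitabine. Untreated HH held the same marker at a summed 3.98 to 4.85 CPM. The part of the myeloid markers in the CDA counts was not tested.

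**Figure D3:**
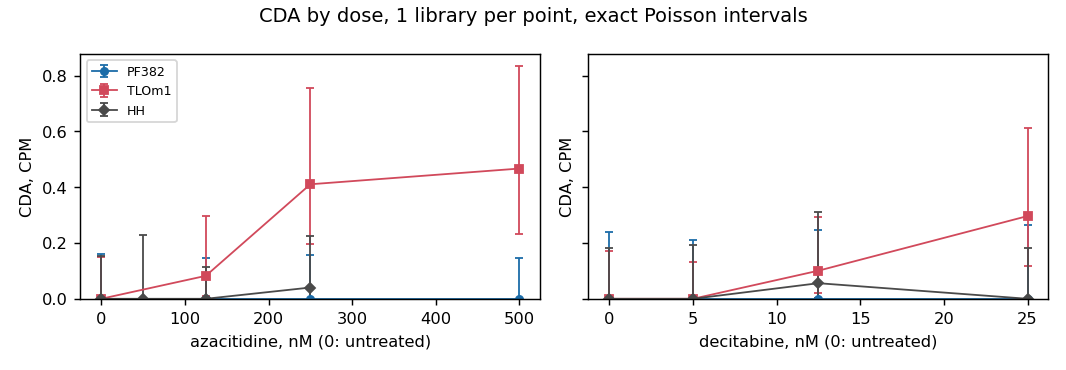
CPM of CDA by dose for azacitidine (left) and decitabine (right), 1 library per point, with exact 95% Poisson intervals; dose 0 is the untreated library of the set. TLOm1 reaches 0.467 CPM at 500 nM azacitidine and 0.296 CPM at 25 nM decitabine, and PF382 stays at 0.

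Within the treated libraries, the level of each gene was also fitted on log2 dose, which leaves out the untreated libraries and gives a log2 change per doubling. With azacitidine 13.7% of the 15932 genes tested were called, 7.55% higher and 6.17% lower with dose, and among the members RRM1 and DCTD were called lower. With decitabine 2.97% of 15677 genes and 0 of the 9 members were called, and 2 members, SLC29A2 and RRM1, had an unadjusted p under 0.05, as did 18.2% of all genes. DESeq2 gave the same counts of 2 and 0. Slopes in each line and their difference between lines were added after the values had been seen. That model has 6 coefficients for 9 libraries, and azacitidine spans 125 to 500 nM in PF382 and TLOm1 but 50 to 250 nM in HH. Slopes differed between the lines in 6 of the 9 members with azacitidine, beside 15.7% of all genes, and in 2 of the 9 with decitabine, beside 6.1%. Both include SAMHD1, which has at most 16 counts in any PF382 library. The tests of the whole drug effect between lines called 0 members for either drug, beside 0.14% of 17190 genes for azacitidine and 0.00582% for decitabine, and at an unadjusted p under 0.05 there were 2 members with azacitidine (11% of genes) and 1 with decitabine (8.55%). DESeq2 called 1 member with azacitidine and 0 with decitabine. As a background for the positions given below, all 3 doses lay above the untreated library for 40% of genes in PF382, 30.3% in TLOm1 and 31.1% in HH with azacitidine, and below it for 24.9%, 33.7% and 26.1%. With decitabine the shares were 38.4%, 31.6% and 34.7% above and 23.6%, 31.4% and 22.2% below.

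SLC29A1 fell with dose in PF382, the line where it was highest. It read 313, 297, 216 and 152 CPM in PF382 at 0, 5, 12.5 and 25 nM decitabine, a slope of -0.44 per doubling (SE 0.05, adjusted p = 1.68e-08). In TLOm1 it read 44.5, 56.6, 54.7 and 53.7 CPM and in HH 88.9, 105, 107 and 103 CPM, and neither slope passed (-0.040, SE 0.049, and -0.018, SE 0.047). All 3 treated libraries were below the untreated one in PF382 and above it in TLOm1 and HH. With azacitidine, SLC29A1 read 308, 344, 305 and 224 CPM in PF382 at 0, 125, 250 and 500 nM (slope -0.32, SE 0.05, adjusted p = 8.68e-05). TLOm1 gave 55.4, 62.0, 59.4 and 49.5 CPM (slope -0.17, SE 0.05, adjusted p = 0.0181). HH gave 122, 147, 144 and 144 CPM at 0, 50, 125 and 250 nM (slope -0.016, SE 0.041). The lowest dose was thus above the untreated library in every line with azacitidine, and the decline in PF382 and TLOm1 ran from there. The slopes differed between lines with azacitidine (adjusted p = 0.0058) and with decitabine (adjusted p = 3.31e-05). Each call was lost without the highest dose in PF382: the adjusted p became 0.213 without 500 nM azacitidine and 0.156 without 25 nM decitabine. That of azacitidine was also lost without 50 nM in HH (0.1003).

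SLC29A2 fell with dose in HH with both drugs and in TLOm1 with azacitidine, and had no slope past the threshold in PF382. In TLOm1 it read 58.7, 40.6, 36.9 and 21.1 CPM at 0, 125, 250 and 500 nM azacitidine, a slope of -0.47 (SE 0.08, adjusted p = 0.000139). In HH it read 35.7, 30.8, 24.2 and 19.3 CPM at 0, 50, 125 and 250 nM, a slope of -0.29 (SE 0.07, adjusted p = 0.00532). In PF382 it read 17.1, 20.6, 23.0 and 23.5 CPM at 0, 125, 250 and 500 nM, with every treated library above the untreated one and a slope that did not pass (0.081, SE 0.077, adjusted p = 0.561). The same order was found with decitabine at 0, 5, 12.5 and 25 nM: 44.5, 43.2, 35.3 and 33.9 CPM in TLOm1 (slope -0.16, SE 0.06, adjusted p = 0.245), 32.9, 28.2, 22.4 and 18.1 CPM in HH (slope -0.28, SE 0.07, adjusted p = 0.00632), and 13.4, 15.3, 16.5 and 18.1 CPM in PF382 (slope 0.076, SE 0.074, adjusted p = 0.567). All 6 treated libraries lay below both untreated ones in HH, as for 3.31% of 15637 genes, and in TLOm1, as for 8.15%, whereas in PF382 the treated and untreated libraries overlapped. The whole drug effect was not shown to differ between lines (adjusted p = 0.444 with azacitidine and 0.749 with decitabine). The azacitidine slopes differed between lines (adjusted p = 0.00406), and those of decitabine did not pass (adjusted p = 0.054), but did without TLOm1 at 5 nM (0.0298). The azacitidine call was lost without 125 nM (0.208) or 500 nM (0.0924) in PF382. With PF382, the line with positive slopes, left out, the common slope passed for azacitidine (-0.36, adjusted p = 0.0232) and for decitabine (-0.22, adjusted p = 0.0148). That outcome follows from the slopes by line given above and adds no further support. Among all genes, 1298 of 14553 passed in that azacitidine fit and 271 of 14497 in that decitabine fit.

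**Figure D4:**
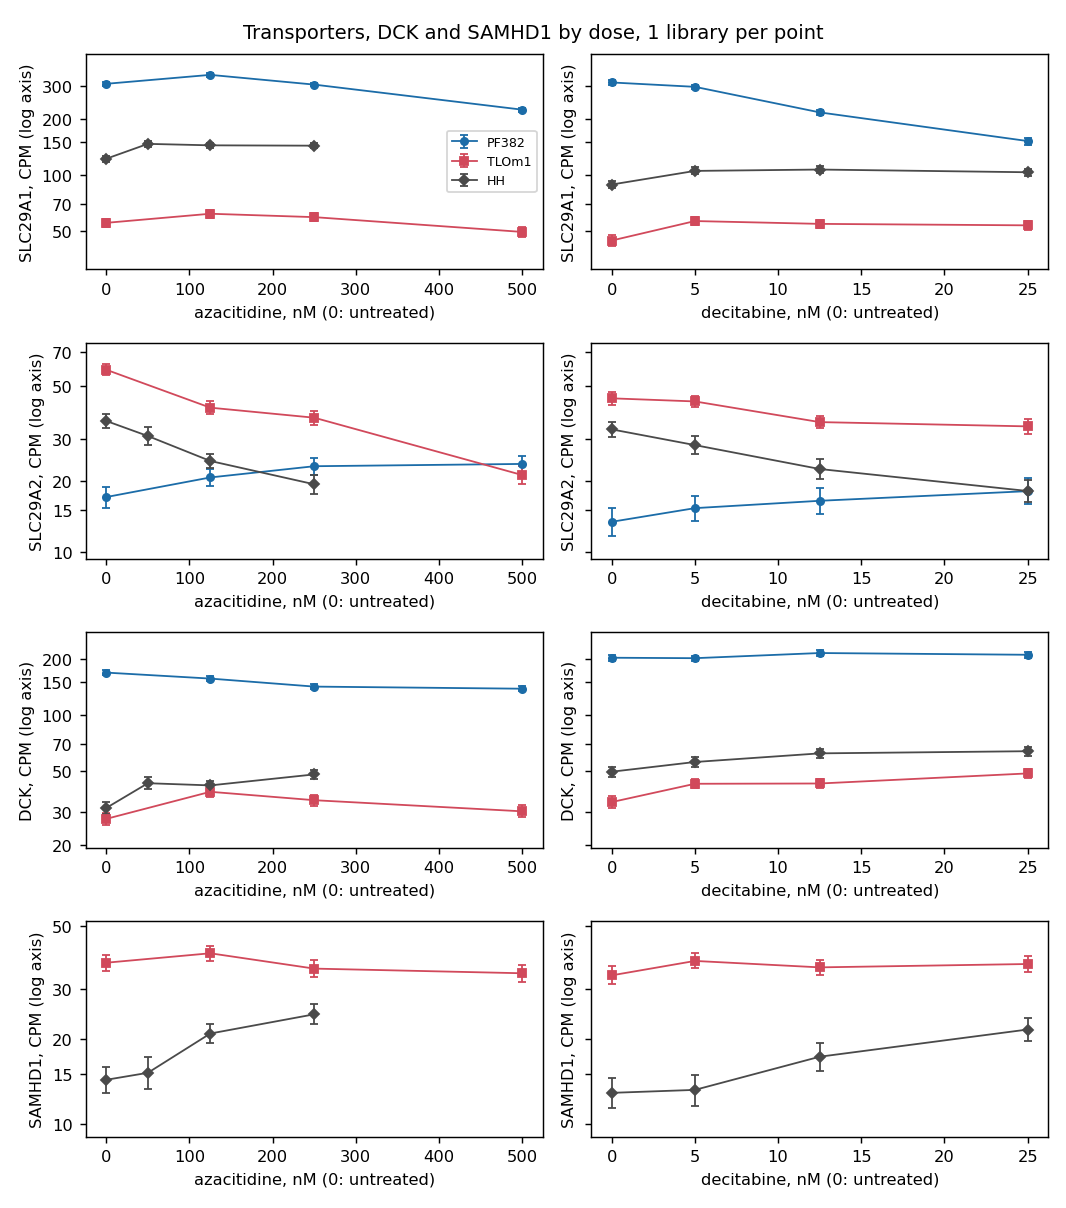
CPM (log axis) of SLC29A1, SLC29A2, DCK and SAMHD1 by dose in nM, azacitidine left and decitabine right, 1 library per point with exact 95% Poisson intervals; PF382 is left out of the SAMHD1 panels, where it has at most 16 counts. SLC29A2 is lower at each higher dose in TLOm1 and HH and higher at each higher dose in PF382, where its slope did not pass, and SAMHD1 rises in HH.

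DCK after azacitidine lay below the untreated library in PF382 and above it in the other lines, a difference that edgeR did not call. It read 169, 157, 142 and 138 CPM in PF382 at 0, 125, 250 and 500 nM, 27.6, 38.5, 34.7 and 30.2 CPM in TLOm1 at the same doses, and 31.5, 42.8, 41.7 and 47.8 CPM in HH at 0, 50, 125 and 250 nM. All 3 treated libraries were below the untreated one in PF382 and above it in TLOm1 and HH. The fitted effect was -0.25 in PF382 (SE 0.13, adjusted p = 0.426), 0.34 in TLOm1 (SE 0.14, adjusted p = 0.192) and 0.48 in HH (SE 0.14, adjusted p = 0.202). The edgeR test of equal effects gave an adjusted p of 0.17 (0.00208 unadjusted), and DESeq2 gave an adjusted p of 0.00701. In HH the untreated library of the decitabine set, at 49.4 CPM, stood above all 3 azacitidine libraries, so the rise there was smaller than the difference between the 2 untreated libraries. Within the treated libraries, DCK in TLOm1 had a slope of -0.19 (SE 0.05, adjusted p = 0.0103), so that the excess over untreated cells was largest at the lowest dose. The slopes differed between lines (adjusted p = 0.0294), a call lost without any 1 of 7 of the 9 libraries and with DESeq2.

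The uridine-cytidine kinases moved little. UCK2 in TLOm1 read 84.1, 80.3, 76.2 and 60.8 CPM at 0, 125, 250 and 500 nM azacitidine, a slope of -0.21 (SE 0.05, adjusted p = 0.00268). In PF382 it read 89.4, 100.02, 105 and 103 CPM at the same doses. By CPM all 6 treated libraries of PF382 were above both untreated ones, as for 10.1% of 15637 genes. Scaled by TMM factors, UCK2 at 25 nM decitabine lay below both, so this separation was lost. In HH it stayed between 132 and 142 CPM after azacitidine, against 136 CPM untreated. UCK1 had no slope past the threshold in any line with either drug; its largest, 0.14 in HH with azacitidine, had an adjusted p of 0.0911 (SE 0.06). With decitabine, UCK1 was above the untreated library at all 3 doses in TLOm1 (24.9 to 28.2 CPM, against 22.4 CPM) and below it at all 3 in HH (15.2 to 19.3 CPM, against 20.1 CPM).

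RRM1 fell with azacitidine dose. In TLOm1 it read 229, 246, 198 and 146 CPM at 0, 125, 250 and 500 nM, in PF382 423, 399, 389 and 333 CPM, and in HH 200.3, 211, 199 and 185 CPM at 0, 50, 125 and 250 nM. The common slope was -0.19 (SE 0.05, adjusted p = 0.0337), made up of -0.39 in TLOm1 (SE 0.05, adjusted p = 3.22e-06), -0.14 in PF382 (SE 0.04, adjusted p = 0.0366) and -0.081 in HH (SE 0.039, adjusted p = 0.164). The common slope was not called without any 1 of 5 of the 9 libraries, with adjusted p up to 0.104, or without PF382 (0.0852) or TLOm1 (0.119). The slopes differed between lines (adjusted p = 0.00304), but not without TLOm1 at 500 nM (0.233). In the decitabine set RRM1 declined with dose in PF382, from a lowest dose that was above the untreated library. It read 468, 487, 455 and 412 CPM there at 0, 5, 12.5 and 25 nM (slope -0.13, SE 0.04, adjusted p = 0.0357). TLOm1 read 214, 241, 233 and 231 CPM at the same doses, and HH read 190.3, 191, 195 and 189 CPM. A difference in slope between lines was not called (adjusted p = 0.494).

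RRM2 went different ways in TLOm1 and HH. After azacitidine it read 356, 423, 369 and 306 CPM in TLOm1 at 0, 125, 250 and 500 nM (slope -0.25, SE 0.04, adjusted p = 0.000269) and 346, 315, 333 and 379 CPM in HH at 0, 50, 125 and 250 nM (slope 0.11, SE 0.04, adjusted p = 0.0432). In PF382 it read 734, 790.4, 823 and 837 CPM, with no slope past the threshold (0.028, SE 0.042). Slopes differed between lines with an adjusted p of 0.000579, which became 0.0862 without TLOm1 at 500 nM. In TLOm1 at 500 nM the summed level of 18 proliferation genes was also the lowest of its set, at 4218 CPM, against 5652 and 5342 CPM at 125 and 250 nM and 5052 CPM untreated, and 15 of the 18 genes fell with azacitidine dose in that line, where 13.1% of all genes did. In HH the sum was 5792, 5840 and 5725 CPM at 50, 125 and 250 nM, against 5285 CPM untreated. The part of proliferation in the RRM1 and RRM2 levels was not tested. By CPM with decitabine, RRM2 was above the untreated library at all 3 doses in PF382 and TLOm1 and below it at all 3 in HH. Scaled by TMM factors, RRM2 in PF382 at 25 nM lay below its untreated library. The edgeR test of the difference in effect between lines had a p of 0.0492 and an adjusted p of 0.583.

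DCTD fell with azacitidine dose at a common slope of -0.11 (SE 0.03, adjusted p = 0.0327). It read 139, 115, 101 and 96.1 CPM in TLOm1 at 0, 125, 250 and 500 nM, 69.6, 69.8, 69.4 and 66.0 CPM in PF382, and 50.6, 52.7, 49.1 and 42.3 CPM in HH at 0, 50, 125 and 250 nM. The slopes were -0.14 in TLOm1 (SE 0.04, adjusted p = 0.0199), -0.054 in PF382 (SE 0.046, adjusted p = 0.511) and -0.14 in HH (SE 0.04, adjusted p = 0.0337), and they were not shown to differ (adjusted p = 0.523). In TLOm1 all 6 treated libraries, at 96.1 to 117 CPM, lay below both untreated ones at 133 and 139 CPM, as for 8.15% of 15637 genes. The common slope was not called without any 1 of 6 of the 9 libraries, with adjusted p up to 0.124, or without any 1 line, with adjusted p of 0.118 without HH, 0.057 without PF382 and 0.136 without TLOm1.

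SAMHD1 rose with dose in HH with both drugs. It read 14.3, 15.1, 20.8 and 24.4 CPM at 0, 50, 125 and 250 nM azacitidine, a slope of 0.29 (SE 0.06, adjusted p = 0.00274). With decitabine at 0, 5, 12.5 and 25 nM it read 12.9, 13.2, 17.3 and 21.5 CPM, a slope of 0.29 (SE 0.08, adjusted p = 0.0186). The lowest dose of either drug was close to the untreated level, and the highest was above both untreated libraries. In TLOm1, where SAMHD1 was highest, it stayed at 40.0, 35.3 and 34.0 CPM after azacitidine, against 37.0 CPM untreated, and at 37.6, 35.6 and 36.6 CPM after decitabine, against 33.4 CPM untreated, with neither slope past the threshold. In PF382 it held 11, 16 and 16 counts after azacitidine, against 9 untreated, and 0, 5 and 9 counts after decitabine, against 1 untreated. The fitted decitabine slope in PF382, 1.65 (SE 0.47, adjusted p = 0.0153), rests on these 14 counts. Pooled over doses, PF382 had 0.58 CPM after azacitidine (exact 95% Poisson interval 0.42 to 0.781), against 0.393 CPM untreated (0.18 to 0.746), and the intervals overlap. Slopes differed between lines with azacitidine (adjusted p = 0.0073) and decitabine (adjusted p = 0.0116), in tests that include these low counts of PF382. The azacitidine call was lost with DESeq2 (0.124) and without 50 nM in HH (0.209), 125 nM in TLOm1 (0.205) or 500 nM in TLOm1 (0.0761), and that of decitabine without 5 nM in HH (0.0557), PF382 (0.2) or TLOm1 (0.0624), or without 25 nM in PF382 (0.0586).

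**Figure D5:**
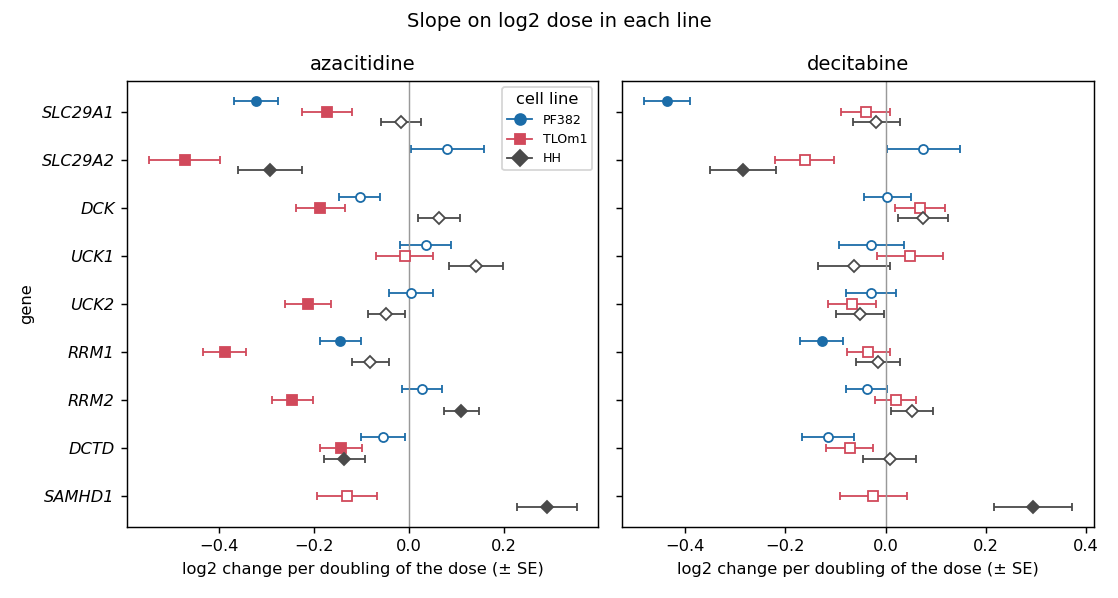
Log2 change per doubling of the dose, ± SE, for 9 members in PF382, TLOm1 and HH, azacitidine left and decitabine right; filled symbols have an adjusted p under 0.05, and SAMHD1 in PF382 (at most 16 counts) is left out. TLOm1 has 7 filled symbols with azacitidine, all below 0, and none with decitabine.

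By line, 7 members fell and 0 rose with azacitidine dose in TLOm1, beside 13.1% of genes falling, 2 fell and 0 rose in PF382 (4.51% falling), and 2 rose and 2 fell in HH (9.36% rising and 8.27% falling). With decitabine 0 members were called in TLOm1 (2.02% of genes). In PF382 2 fell and 1 rose (5.24% falling and 9.9% rising), the latter being SAMHD1 on 14 counts. In HH 1 rose and 1 fell (3.66% rising and 1.07% falling). The drugs were given at doses that do not match, so these counts are side by side and make no comparison of one drug with the other.

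Genes around the members in the same route were called in few cases over all lines together, and in more cases within single lines. Against untreated cells over all lines, 0 genes of the 4 lists below were called with either drug. The genes named for slopes or effects in single lines were chosen after their values were seen. Of 13 other nucleoside and nucleotide kinases, all tested, 2 fell and 0 rose on the common azacitidine slope, beside 6.17% of genes falling. These were the nucleoside diphosphate kinases NME1 (slope -0.20, SE 0.05, adjusted p = 0.0341) and NME4 (-0.25, SE 0.07, adjusted p = 0.0411). By line, DGUOK, NME1 and NME4 fell and 0 rose in TLOm1 (13.1% of genes falling), NME1 and NME4 fell and NME3 rose in PF382 (4.51% falling and 7.47% rising), and TK2 and UCKL1 rose and 0 fell in HH (9.36% rising). On the decitabine slopes DTYMK, NME1 and NME4 fell and NME3 rose in PF382 (5.24% falling and 9.9% rising), TK2 rose in HH (3.66% rising), and 0 were called in TLOm1. NME4 in PF382 read 93.9, 69.7, 50.0 and 36.6 CPM at 0, 5, 12.5 and 25 nM decitabine. NME1 shares much of its sequence with its neighbour NME2, so its reads are uncertain.

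Of 17 genes of breakdown and dephosphorylation, 13 were tested with azacitidine, and on its common slope 1 rose, beside 7.55% of genes, and 1 fell, beside 6.17%. DUT, which hydrolyses dUTP, fell (slope -0.18, SE 0.04, adjusted p = 0.0226). TYMP, thymidine phosphorylase, rose (0.41, SE 0.10, adjusted p = 0.0273). TYMP read 12.03, 21.5, 34.6 and 49.8 CPM in TLOm1 at 0, 125, 250 and 500 nM azacitidine and 1.77, 3.83, 4.4 and 7.50 CPM in HH at 0, 50, 125 and 250 nM, while PF382 read 1.61, 1.45, 1.19 and 1.20 CPM. By line, TYMP rose and DUT and DCTPP1 fell in TLOm1, beside 14.2% of genes rising and 13.1% falling. In HH TYMP rose and DUT and DPYS fell (9.36% rising and 8.27% falling). In PF382 DPYD and DPYS fell (4.51% falling). With decitabine, where 14 were tested, TYMP rose in HH (3.66% of genes rising) and NT5M, DCTPP1 and DPYD fell in PF382 (5.24% falling).

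The genes of de novo pyrimidine synthesis were called within lines but not on the common slopes. In TLOm1, 5 of the 7 fell with azacitidine dose and 0 rose, beside 13.1% of genes falling. They were TYMS, thymidylate synthase (slope -0.25, SE 0.05, adjusted p = 0.000327), CAD, which carries out the first steps (-0.19, SE 0.05, adjusted p = 0.00538), DHODH, dihydroorotate dehydrogenase (-0.26, SE 0.07, adjusted p = 0.00646), UMPS, UMP synthase (-0.17, SE 0.05, adjusted p = 0.00976), and CTPS, a CTP synthase (-0.16, SE 0.04, adjusted p = 0.0127). In PF382, 3 of the 7 fell with decitabine dose, beside 5.24% of genes falling: CAD (-0.20, SE 0.04, adjusted p = 0.00123), CTPS (-0.16, SE 0.05, adjusted p = 0.0191) and UMPS (-0.16, SE 0.05, adjusted p = 0.0328). In the other 4 combinations of line and drug 0 were called. On the common slopes the smallest p-values were those of CAD (decitabine slope -0.12, SE 0.03, adjusted p = 0.0575) and UMPS (-0.11, SE 0.03, adjusted p = 0.0746). The azacitidine slope differed between lines for TYMS alone of the 7 (adjusted p = 0.00425), beside 15.7% of genes.

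Of 10 other transporters 6 were tested over all lines, and 0 were called against untreated cells or on the common slopes, the nearest being the exporters ABCC4 (azacitidine against untreated 0.27, SE 0.07, adjusted p = 0.0839) and ABCC5 (-0.35, SE 0.10, adjusted p = 0.111). Within TLOm1, where 8 were tested, ABCC5 fell with azacitidine against untreated cells (-0.77, SE 0.12, adjusted p = 0.0129), as did 0.401% of genes. SLC29A4, a relative of the equilibrative carriers, rose with azacitidine dose in TLOm1 (slope 1.698, SE 0.43, adjusted p = 0.00557), beside 14.2% of genes rising, and in HH (0.75, SE 0.17, adjusted p = 0.00371), and its slopes differed between lines (adjusted p = 0.00664). Among 18 proliferation genes 2 fell on the common azacitidine slope, beside 6.17% of genes, CCNA2 (-0.17, SE 0.04, adjusted p = 0.0199) and CDK1 (-0.17, SE 0.04, adjusted p = 0.021). The azacitidine slopes of 13 of the 18 differed between lines, beside 15.7% of genes. Median slopes with azacitidine were -0.079 for the 9 members and -0.10 for the proliferation genes, beside 0.0088 for all genes tested.

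After the mean of each line and set was taken away, the members spread by an SD of 0.10 (UCK2) to 0.51 (SAMHD1) on the log2 scale over the 24 libraries, with SLC29A2 at 0.32 and SLC29A1 at 0.24. Among pairs of members, UCK2 and SLC29A2 had the highest Pearson correlation (0.76) and SLC29A1 and SAMHD1 the lowest (-0.65), over 24 libraries that share lines and sets. Over 15638 genes, the patterns most like that of RRM1 were those of HNRNPC (0.95), PDHA1 (0.94) and KIF15 (0.94), and those most like DCTD were PDP2 (0.93), C2orf47 (0.92) and TYW3 (0.915). These correlations are descriptions and carry no test.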

How the data were processed

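RNA-seq was measured in 24 libraries. The authors deposited whole counts per gene, not normalized, in 1 table per library. The tools listed in the submitters' notes are STAR, DESeq2 and limma, with GRCh37.p2 as the build and no role for each. Which program counted reads, and on which annotation, is not given in the sources used here. Labels call the RNA polyA but also rRNA-depleted, a contradiction that could not be resolved. Total counts set the precision, 13892514 to 32496676 per library. No pair of libraries was identical (0 pairs), and the untreated libraries of a line differed beyond sampling noise.

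The deposited counts were tested with edgeR 4.0.16 in R 4.3.3 (TMM factors, robust quasi-likelihood F test), fitted over all genes that passed filterByExpr (minimum count 10, minimum total 15). The p-values were Benjamini-Hochberg adjusted over all genes tested, with a threshold of 0.05. Treated libraries of a set were compared with its untreated ones with line as a block. Slopes used log2 dose in the 9 treated libraries of a drug. Effects between lines used all 24 libraries. Untreated lines were compared with the title prefix as a term. SE was taken from the fold change and the F value. For single genes an exact two-sided permutation test on log2(CPM + 1) ran over 64 arrangements. Alternatives were RLE factors, DESeq2 1.42.0, limma voom 3.58.1, no filter, other blocks or controls, and each library or line left out. The fits were tested on simulated data. Named genes were all 10 members and, from each other list, up to 4 genes per test with an adjusted p under 0.05, or else the 2 with the smallest p; likeness was taken for members called in a drug or dose test. Members and lists were chosen with earlier results of these data known.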

Additional observations from a re-analysis of the deposited data

Results flagged for a closer look

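The members below behaved differently between lines, either by the test of the dose slope between lines, which was chosen after the values were seen, or because all 3 doses lay above the untreated library in 1 line and below it in another. In the second case the test of the effect between lines, given as an adjusted p, did not pass in any case.

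With azacitidine the slopes of 6 members differed between lines, with adjusted p of 0.0294 for DCK, 0.0058 for SLC29A1, 0.00406 for SLC29A2, 0.00304 for RRM1, 0.000579 for RRM2 and 0.0073 for SAMHD1. With decitabine those of SLC29A1 (3.31e-05) and SAMHD1 (0.0116) differed; without TLOm1 at 5 nM, the library with 257 counts of COL1A2 and 97 of DCN, that of SAMHD1 was not called (0.0624) and that of SLC29A2 was (0.0298). Dose ranges of azacitidine were not the same in HH as in PF382 and TLOm1, and dose range and line cannot be told apart there.

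DCK after azacitidine was above the untreated library at every dose in TLOm1 and HH and below it in PF382 (adjusted p of the difference 0.17). UCK2 after azacitidine was above in PF382 and below in TLOm1 (0.622). SLC29A2 was above in PF382 and below in TLOm1 and HH with azacitidine (0.444) and with decitabine (0.749). After decitabine SLC29A1 was above in TLOm1 and HH and below in PF382 (0.641). UCK1 was above in TLOm1 and below in HH (0.63). RRM2 was above in PF382 and TLOm1 and below in HH (0.583). DCTD was above in HH and below in PF382 and TLOm1 (0.747). These positions are by CPM. Scaled by TMM factors, RRM2 in PF382 at 25 nM and DCTD in HH at 5 and 12.5 nM lay below their untreated libraries. Neither the RRM2 nor the DCTD pattern held on that scale. In any 1 line, 22.2% to 40% of all genes tested had all 3 doses on a given side of the untreated library.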

How the results depend on the processing

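Over the fits of single members, 1143 alternative values kept direction and side of the threshold, 47 lost a call, 20 gained one and 50 changed sign, all 50 of the last with an adjusted p of 0.139 or more. Against untreated cells, the count of members called was 0 for both drugs, and 1 with azacitidine (UCK1, 0.28, adjusted p = 0.034) and 2 with decitabine when both untreated libraries of a line were controls. The azacitidine slope called 2 members, and 1 without PF382 and 1 without TLOm1, while the decitabine slope called 0, and 1 without PF382. The azacitidine effect between lines called 0 members, and 1 with DESeq2. With a library left out, members called ranged from 0 to 3 for the azacitidine slope (2 with all), 0 to 1 for the decitabine slope (0), 2 to 7 for the azacitidine slope between lines (6) and 0 to 3 for that of decitabine (2); from 8 to 9 for untreated PF382 against HH, 5 to 6 for TLOm1 against HH and 8 to 8 for PF382 against TLOm1; and 0 to 0 for each drug against untreated cells. DESeq2 gave 4 and 2 members for the slopes between lines. The causes were not tested.

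Over all genes, counts moved more. Against untreated cells azacitidine gave 189 calls, 1115 with DESeq2, 445 with limma voom, 0 without the line block, 1 with doses summed and 2952 with both untreated libraries; decitabine gave 0, 469, 12, 0, 10 and 1796 in that order. The effect between lines gave 24 calls with azacitidine, 409 with DESeq2 and 159 with both untreated libraries, and for decitabine 1, 128 and 53. The decitabine slope gave 465 calls and 838 without the filter. Slopes between lines gave 2508 with azacitidine and 1382 with DESeq2, and 957 and 595 with decitabine.

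Values that changed sign are given on the log2 scale. For azacitidine against untreated, DCK was -0.029 without the line block and -0.018 with both untreated libraries, UCK2 was 0.060 with both untreated libraries, 0.069 without TLOm1 and 0.016 at 125 and 250 nM only, SLC29A1 was -0.043 without HH, and RRM2 was -0.075 with both untreated libraries. For the azacitidine dose slope, RRM2 was 0.079 without TLOm1, and SAMHD1 was -0.065 without HH. For decitabine against untreated, UCK1 was 0.0075 with limma voom, 0.0079 with doses summed, 0.078 without HH and 0.012 without PF382, UCK2 was -0.050 with both untreated libraries, -0.00026 without PF382 and -0.0034 without TLOm1, SLC29A1 was 0.016 with doses summed and 0.25 without PF382, RRM1 was -0.0054 without the line block, -0.018 with both untreated libraries, -0.067 without TLOm1 and -0.018 at 12.5 and 25 nM only, and RRM2 was -0.074 without TLOm1. For the decitabine dose slope, UCK1 was 0.0016 without HH, and RRM2 was -0.016 without HH. With a library left out, the values that changed sign had these ranges. Azacitidine against untreated gave UCK2 -0.11 to 0.079 and SLC29A1 -0.026 to 0.15. The azacitidine slope gave RRM2 -0.078 to 0.044 and SAMHD1 -0.036 to 0.23. Decitabine against untreated gave UCK1 -0.14 to 0.090, SLC29A1 -0.19 to 0.26, RRM1 -0.055 to 0.057 and RRM2 -0.062 to 0.19. The decitabine slope gave UCK1 -0.052 to 0.022 and RRM2 -0.0051 to 0.035. Untreated TLOm1 against HH gave UCK1 -0.040 to 0.11 and RRM2 -0.37 to 0.064. Untreated PF382 against TLOm1 gave UCK2 -0.073 to 0.14.

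The settings of 125 and 250 nM only and of 12.5 and 25 nM only, which called 0 members, and the slopes between lines were chosen after the data were seen. In the slopes per line a left-out library leaves 2 doses in its line, which is assumed to vary like the other lines. Line was a block in the comparisons with untreated cells, and its effect stands above, as does that of summing doses, which pairs treated with untreated within each line. No paired analysis was possible by replicate number, because each condition has 1 library and the 2 untreated libraries of a line share their numbers with no treated pair. A count of 0 in a library allows 0.0923 to 0.216 CPM, and differences below that were not detectable; CDA held at most 11 counts in a library and SAMHD1 in PF382 at most 16.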
